A study of Mus musculus with 96 samples.

Results

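REV-ERBα and REV-ERBβ, encoded by Nr1d1 and Nr1d2, are nuclear receptors of the circadian clock that repress transcription. They act at DNA elements built on the letters AGGTCA and hold down clock genes such as Arntl and Npas2 as well as genes of lipid metabolism. Liver macrophages comprise the resident Kupffer cells, which line the sinusoids and clear particles, iron and lipoproteins from blood, and cells recruited from monocytes. Hepatocytes make fatty acids mainly after feeding, which in mice falls in the dark phase, and they lie close to the macrophages.

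The comparison described here is that of RevDKO with Control liver macrophages in the dark phase. It comprises 12 of the 96 libraries of the series, 6 RevDKO and 6 Control, with 3 of each genotype at ZT16 and 3 at ZT22. ZT is zeitgeber time, the hours since lights on, and lights went off before ZT16. The libraries were chosen by genotype, cell type and time label. Earlier results of these data were known when this comparison and the gene lists were chosen. The question addressed is whether loss of a clock repressor in hepatocytes is accompanied by other transcript levels in neighbouring macrophages. All mice were male C57BL/6J, carried floxed alleles of both genes, and had eaten the high fat and sucrose diet D12492i for 4 weeks. RevDKO mice had received an adeno-associated virus carrying CRE, and Control mice a virus carrying GFP, in both cases under the hepatocyte-specific TBG promoter. The deletion was therefore directed to hepatocytes and not to the macrophages themselves, whose own Nr1d1 and Nr1d2 were meant to stay intact. The labels do not give the age of the mice. They do not say whether a library held 1 mouse or several, or whether macrophages and hepatocytes came from the same livers.

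Levels are given as RPKTM, which is 10 times RPKM, the reads per kilobase of transcript scaled to library size, so that genes can be compared per length. Differences are RevDKO minus Control in log2(RPKTM + 1), where the added 1 makes those of low genes too small, and each carries its standard error (SE). Test results are from limma over 12907 genes with ZT in the model, with p-values adjusted by the Benjamini-Hochberg method and a threshold of 0.05. The values had been quantile normalized, which leaves the sequencing depth unknown.

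The macrophage label was checked against marker genes first. All 15 genes of the Kupffer cell list and all 17 genes expressed by macrophages in general were above 0 in every library. Clec4f, a lectin specific to Kupffer cells, lay between 669 and 7201 RPKTM in the Control libraries with a median of 2623, and between 856 and 2602 with a median of 1513 in the RevDKO libraries. Hepatocyte transcripts were abundant as well. All 18 hepatocyte markers were above 0 in every library, and Alb, which encodes albumin, had a median of 73350 RPKTM in Control and 53330 in RevDKO. Alb took 27.5% of the column sum in Control ZT22 replicate 1 and 13.7% in Control ZT16 replicate 1, against 0.268% to 1.25% in the other 10 libraries. Quantile normalization gave every library the same sorted values, so these shares show the rank of Alb in a library and not its amount of RNA. Control ZT22 replicate 1 and Control ZT16 replicate 1 also had the highest summed Kupffer list, while Control ZT22 replicate 3 had the lowest. Over the genes tested, 4 libraries had no correlation above 0.784 with any other one, namely Control ZT22 replicate 2, RevDKO ZT16 replicates 1 and 2 and RevDKO ZT22 replicate 2.

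**Figure D1:**
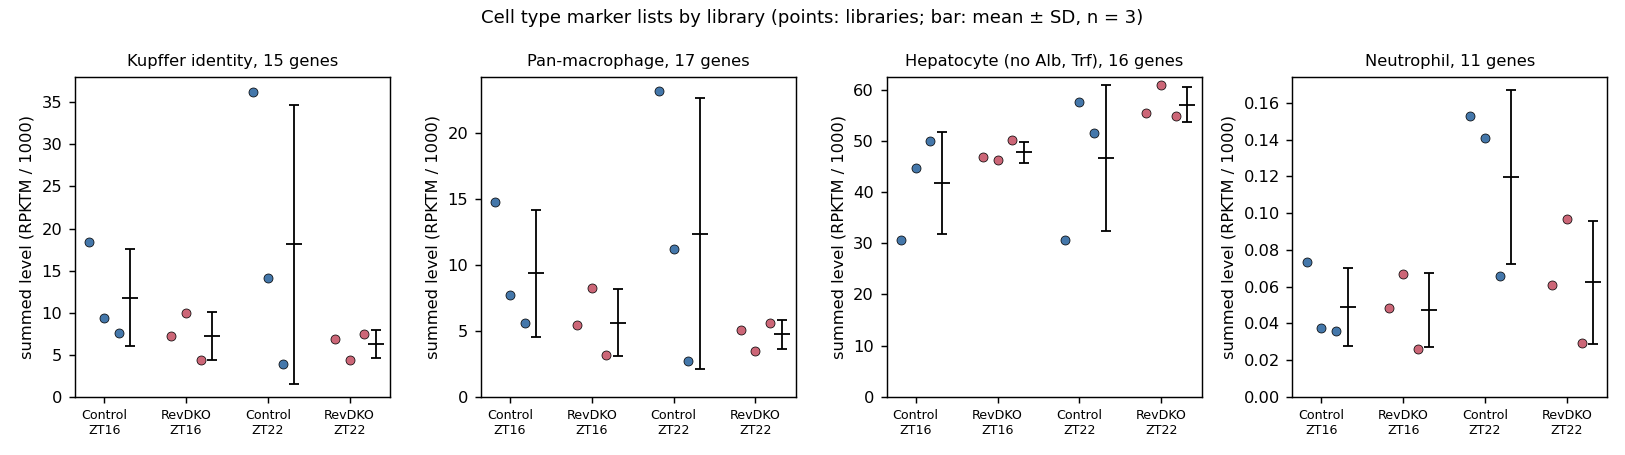
Summed level of 4 marker lists (vertical axis, RPKTM divided by 1000, from 0) in each library of the 4 groups (horizontal axis). Points are libraries, the bar is the mean with its SD over 3 libraries. Control ZT22 replicate 1 is highest for both macrophage lists, at 36270 and 23220 RPKTM, and Control ZT22 replicate 3 is lowest for both, at 3919 and 2712 RPKTM.

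Cyp17a1, Loxl4 and Cyp2a5 rose in RevDKO past the adjusted threshold, by 1.86 to 3.57 log2 units. These 3 genes of 12907 are 0.0232% of those tested. No gene was lower past the adjusted threshold. At an unadjusted limma p under 0.05 there were 1083 genes (8.39%), of which 560 were higher (4.34%) and 523 lower (4.05%), and the median difference over all genes was -0.026. In 36 genes (0.279%) every RevDKO library lay above every Control library, and in 27 (0.209%) every RevDKO library lay below. The SE of a gene's difference had quartiles of 0.316, 0.426 and 0.624 log2 units.

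Cyp17a1 encodes the steroid 17-alpha-hydroxylase and 17,20-lyase, an enzyme of androgen synthesis (NM_007809, mm9 chromosome 19, 46741655 to 46747490, minus strand). Its Control libraries lay between 6.99 and 70.1 RPKTM with a median of 33.9, and its RevDKO libraries between 225 and 717 with a median of 264. The groups did not overlap, and the highest Control value was less than the lowest RevDKO value at both times. The rise was 3.57 log2 units (SE 0.47, limma adjusted p 0.0183). Per time point it was 3.57 at ZT16 and 3.57 at ZT22 (SE 0.68 each).

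Loxl4 encodes a lysyl oxidase, a copper enzyme that cross-links collagen and elastin (NM_053083, chromosome 19, 42666769 to 42687296, minus strand). It measured 9.16 to 79.6 RPKTM in Control, median 23.3, and 131 to 249 in RevDKO, median 184. All 6 RevDKO libraries exceeded all 6 Control libraries. Loxl4 rose by 2.78 log2 units (SE 0.39, limma adjusted p 0.0214), with 3.40 at ZT16 and 2.15 at ZT22 (SE 0.52 each).

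Cyp2a5 encodes a hepatic cytochrome P450 that oxidizes coumarin and nicotine (NM_007812, chromosome 7, 27620358 to 27628283, plus strand). It measured 97.4 to 319 RPKTM in Control, median 193, and 509 to 949 in RevDKO, median 683, again with no overlap. It rose by 1.86 log2 units (SE 0.28, limma adjusted p 0.028). Reads of Cyp2a5 and its near-identical neighbour Cyp2a4 may have been split or shared in counting, so the value of either is uncertain. Cyp2a4 itself measured 0 to 17.2 RPKTM in Control and 6.54 to 24.5 in RevDKO, with overlap, and its difference of 1.46 (SE 0.63, adjusted p 0.584) was not past the threshold.

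The sizes of these 3 differences varied less between settings than their calls. Over 26 alternative settings the difference of Cyp17a1 stayed between 2.81 and 3.87 log2 units, that of Loxl4 between 2.28 and 3.41 and that of Cyp2a5 between 1.55 and 2.12, while adjusted p ranged up to 0.808 for each. Leaving out 1 of the 12 libraries kept the call of Cyp17a1 in 7 fits, of Loxl4 in 6 and of Cyp2a5 in 3. No gene was called without RevDKO ZT16 replicate 1, 2 or 3 or without RevDKO ZT22 replicate 1 or 2, 1 gene without Control ZT16 replicate 2, 6 without Control ZT22 replicate 1, and 39 (36 higher) without Control ZT22 replicate 3. With all 12 libraries kept, each of the 3 calls was lost with a pseudocount of 0.1 (limma adjusted p 0.0526), with no filter on low values (0.301) and with no trend (0.102 to 0.163).

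**Figure D2:**
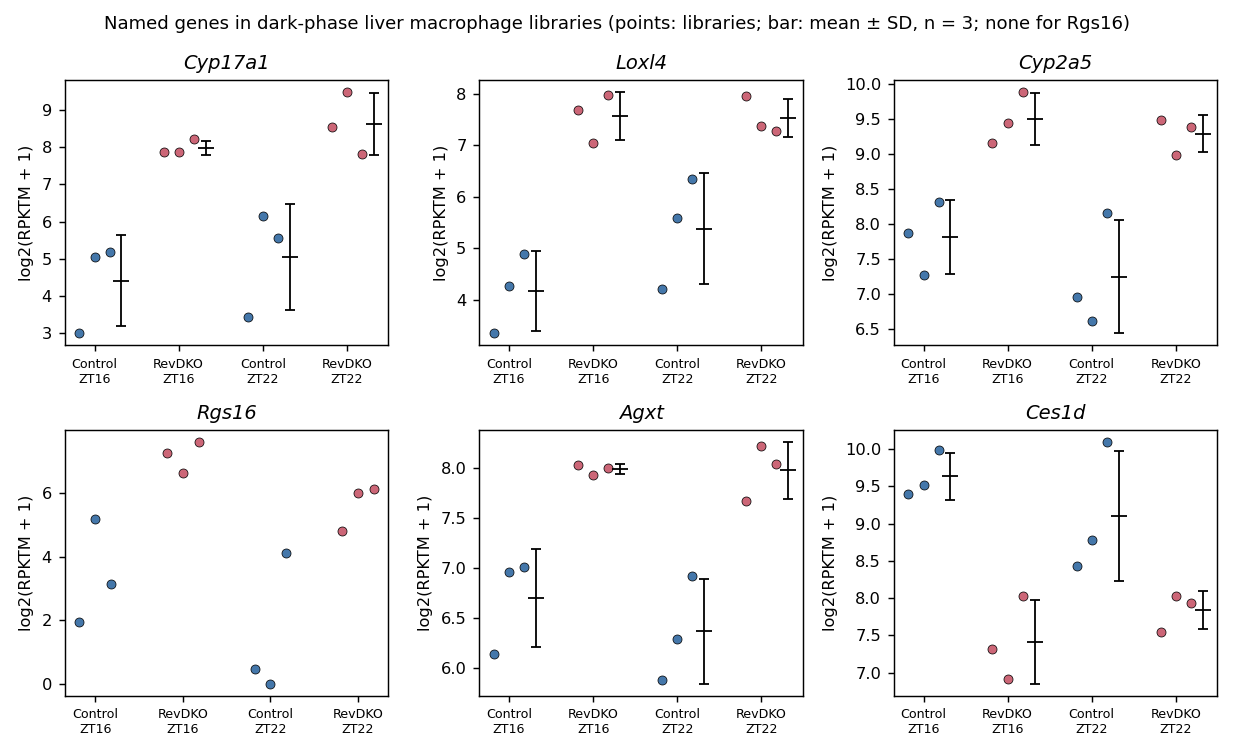
Level of 6 genes (vertical axis, log2(RPKTM + 1)) in each library of the 4 groups (horizontal axis). Points are libraries, and bars the mean and SD of 3 libraries, left out for Rgs16, which was listed at 0 in 1 Control library. RevDKO points lie above all Control points for Cyp17a1, Loxl4, Cyp2a5 and Agxt and below them for Ces1d, whereas 1 RevDKO library overlaps Control for Rgs16.

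The sequence before the start of these genes is shown because REV-ERBs act through the element AGGTCA. Each window runs from 250 bases before to 50 bases after the transcript start of the deposited table, 5′ to 3′ on the gene's strand, read from the mm9 genome. Capitals mark AGGTCA or its reverse complement TGACCT. Arntl, a textbook REV-ERB target, is given for comparison. The windows are chr19:46747441-46747740 (minus) for Cyp17a1, chr19:42687247-42687546 (minus) for Loxl4, chr7:27620108-27620407 (plus) for Cyp2a5 and chr7:120350775-120351074 (plus) for Arntl.
Cyp17a1: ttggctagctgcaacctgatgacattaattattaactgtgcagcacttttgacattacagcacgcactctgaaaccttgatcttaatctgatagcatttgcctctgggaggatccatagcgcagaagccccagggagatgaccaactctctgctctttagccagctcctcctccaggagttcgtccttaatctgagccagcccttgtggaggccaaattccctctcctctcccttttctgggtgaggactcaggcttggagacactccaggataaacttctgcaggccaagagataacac
Loxl4: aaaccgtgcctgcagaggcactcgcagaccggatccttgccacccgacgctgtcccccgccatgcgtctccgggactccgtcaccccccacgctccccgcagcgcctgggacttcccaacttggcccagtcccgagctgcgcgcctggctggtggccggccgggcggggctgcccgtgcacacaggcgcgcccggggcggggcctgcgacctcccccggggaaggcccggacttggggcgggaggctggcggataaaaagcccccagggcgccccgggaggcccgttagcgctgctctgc
Cyp2a5: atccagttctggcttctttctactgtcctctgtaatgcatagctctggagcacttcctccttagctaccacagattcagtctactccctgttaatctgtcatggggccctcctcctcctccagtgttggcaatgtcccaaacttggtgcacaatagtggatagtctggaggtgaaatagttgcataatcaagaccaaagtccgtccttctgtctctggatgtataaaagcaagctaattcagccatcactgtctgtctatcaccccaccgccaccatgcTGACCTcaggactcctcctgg
Arntl: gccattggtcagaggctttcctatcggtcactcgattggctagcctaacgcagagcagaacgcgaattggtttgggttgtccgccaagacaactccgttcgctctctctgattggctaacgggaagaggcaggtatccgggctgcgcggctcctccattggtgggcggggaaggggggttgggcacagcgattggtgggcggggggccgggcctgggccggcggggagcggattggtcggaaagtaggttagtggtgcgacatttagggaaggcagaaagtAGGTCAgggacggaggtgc
The windows of Cyp17a1 and Loxl4 held no AGGTCA on either strand. That of Cyp2a5 held 1 match on the opposite strand, starting at base 30 after the start, and that of Arntl 1 match on the same strand, starting at base 32. Of all 12889 windows of this length that could be read for the genes tested, 12.8% held AGGTCA on either strand, and of the 27 genes named as called, closest to the threshold or targeted, 4 did (Cyp2a5, Slc38a3, Nr1d2 and Arntl). The letters CACGTG, the E-box to which the clock activators bind, were present in 9.64% of all windows and in 2 of the 27, those of Aldh3a2 and Scap. A match of letters is a description of the sequence and says nothing of binding in these cells.

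The 10 next genes had the smallest unadjusted p among those higher in RevDKO, none past the adjusted threshold. Agxt encodes the peroxisomal enzyme that detoxifies glyoxylate. It measured 58.1 to 128 RPKTM in Control, median 98.8, and 202 to 297 in RevDKO, median 258, with no overlap, and its difference was 1.45 (SE 0.23, adjusted p 0.0522). Rgs16 encodes a regulator that shuts off G protein signalling. It was listed at 0 to 35.4 RPKTM in Control, median 5.32, and measured 27.1 to 194 in RevDKO, median 82.9. Of its RevDKO libraries 5 lay above all Control libraries, and the difference of 3.93 (SE 0.67, adjusted p 0.076) had the largest size among these 13 genes.

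Hsd17b6, an enzyme of androgen and retinol oxidation, measured 11.3 to 83.6 RPKTM in Control and 87.2 to 251 in RevDKO, a difference of 2.25 (SE 0.40, adjusted p 0.0943). Hamp2, the second mouse gene of the iron hormone hepcidin, measured 0.233 to 15.2 RPKTM in Control and 21.6 to 48.0 in RevDKO. Slc38a3, a glutamine transporter of the hepatocyte membrane, measured 177 to 715 in Control and 1027 to 1706 in RevDKO, a difference of 1.44 (SE 0.30). In each of these 3 genes the genotypes did not overlap.

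Slc2a5, the fructose transporter GLUT5, was low throughout, at 0 to 3.86 RPKTM in Control and 6.53 to 17.4 in RevDKO. Gstm2, a glutathione transferase with close paralogs and hence uncertain, measured 2.80 to 10.6 and 19.2 to 41.3 RPKTM. Lrtm1 measured 0 to 10.2 and 16.4 to 30.0 RPKTM, Hectd2os, a noncoding transcript near Hectd2, 2.73 to 31.7 and 29.6 to 81.2, and Klhdc7a 0 to 26.1 and 22.1 to 92.2. The last 2 genes overlapped in 1 RevDKO library each. Of all 13 higher genes, 10 had every RevDKO library above every Control library, as did 0.279% of all genes tested. The 13 were chosen by p from these same values, so this count is no separate evidence. On their Control libraries alone, Slc2a5 and Hamp2 would not have passed the filter on low values.

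Among the 10 lower genes of smallest unadjusted p, Ces1d came first. It encodes a carboxylesterase that hydrolyses triglyceride in hepatocytes. Control libraries lay between 344 and 1090 RPKTM with a median of 701, and RevDKO libraries between 120 and 260 with a median of 216. The groups did not overlap, and the difference was -1.74 (SE 0.31, adjusted p 0.0943). Ces1d has close paralogs and its value is uncertain for that reason. Aldh3a2, the fatty aldehyde dehydrogenase, measured 123 to 204 RPKTM in Control and 66.8 to 104 in RevDKO, a difference of -1.03 (SE 0.21, adjusted p 0.18), also without overlap.

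Cyp4a10 and Acot1, targets of the fasting receptor PPARα, belong to this set. Cyp4a10, a fatty acid omega-hydroxylase, measured 40.9 to 256 RPKTM in Control and 13.0 to 66.2 in RevDKO (difference -1.95, SE 0.49, adjusted p 0.409). Acot1, an acyl-CoA thioesterase, measured 21.1 to 65.9 and 2.76 to 22.5 RPKTM (difference -1.72, SE 0.44, adjusted p 0.409). Mup17, one of the major urinary proteins that bind pheromones, measured 3.11 to 31.0 RPKTM in Control and 0 to 3.29 in RevDKO. These 3 genes have paralogs so similar that reads may be shared.

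The other lower genes were mostly at low levels. Dlec1 measured 30.0 to 119 RPKTM in Control and 6.27 to 35.1 in RevDKO. B3galt4, a galactosyltransferase of ganglioside synthesis, Zfp429, a zinc finger gene, Camkk1, a calcium-dependent kinase kinase, and Armc10 had Control medians of 5.35, 6.81, 9.33 and 11.3 RPKTM and RevDKO medians of 0.013, 0.846, 1.21 and 0.654. Every one of these 4 was listed at 0 in at least 1 RevDKO library, so their fitted differences, -2.26 to -2.48, depend on the added constant of 1. Of all 10 lower genes, 5 had every RevDKO library below every Control library, as did 0.209% of all genes tested. The 10 were likewise chosen by p from these values, so this count is no separate evidence. On their RevDKO libraries alone, Mup17, B3galt4, Zfp429, Camkk1 and Armc10 would not have passed the filter on low values.

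The deleted genes themselves were then examined in the macrophages, where the deletion was not directed. Nr1d1 measured 2.85 to 19.4 RPKTM in Control, median 8.47, and 6.90 to 28.3 in RevDKO, median 18.4. The groups overlapped, and the difference of 0.82 (SE 0.44, limma p 0.0813 before adjustment) was not past the threshold. Nr1d2 measured 14.2 to 98.5 and 27.5 to 94.2 RPKTM, a difference of 0.13 (SE 0.34, adjusted p 0.907) whose sign turned with 5 of 26 settings. In the hepatocyte libraries of the same times, Nr1d1 was higher in RevDKO by 2.63 (SE 0.30, adjusted p 8.22e-05) and Nr1d2 by 1.03 (SE 0.35, adjusted p 0.167). A value per transcript does not separate the deleted exons from the rest, so these levels do not check the deletion. The study reported, from its own mRNA measurement, that both genes were markedly lower in hepatocytes after the deletion.

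Genes of the core clock and its output came next, because Arntl, Npas2 and Nfil3 are known to be repressed by REV-ERBs. None of 18 passed the adjusted threshold. At the unadjusted threshold 5 were higher (4.34% over all genes) and none lower (4.05%), and the median difference was 0.34. Npas2, the partner of the Arntl protein that can replace CLOCK, was listed at 0 to 9.56 RPKTM in Control, median 0.654, and at 0 to 33.4 in RevDKO, median 18.7. Of its RevDKO libraries 5 exceeded all Control libraries (difference 2.57, SE 0.81, adjusted p 0.503). The share of all genes with 5 such libraries was not computed. On its Control libraries alone, Npas2 would not have passed the filter on low values.

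Dbp, an output activator of the clock, measured 1.01 to 31.8 RPKTM in Control and 6.84 to 47.5 in RevDKO (difference 1.33, SE 0.42). Nfil3, the repressor that opposes Dbp, measured 7.77 to 40.7 and 28.5 to 87.3 RPKTM (difference 1.27, SE 0.43). Per3 measured 7.18 to 54.4 and 17.9 to 198 RPKTM (difference 1.15, SE 0.32, adjusted p 0.474). In these 3 genes the genotypes overlapped. Rora, an activator that competes with REV-ERBs for the same elements, differed by 0.66 (SE 0.29).

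Arntl measured 8.21 to 58.4 RPKTM in Control, median 22.5, and 11.1 to 42.7 in RevDKO, median 37.8. The RevDKO range lay inside the Control range, and the difference of 0.27 (SE 0.42, adjusted p 0.838) was not past the threshold. In hepatocytes at the same times Arntl was higher in RevDKO by 0.50 (SE 0.12, adjusted p 0.0422).

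Genes of fatty acid synthesis and its regulation were the list with the highest median. Of 17 genes 16 had a positive difference, 11 were higher at an unadjusted p under 0.05 (4.34% over all genes), none was lower, and none passed the adjusted threshold. The median difference was 1.04, against -0.026 over all genes tested. Most of them encode enzymes that make, elongate or desaturate fatty acids or supply their precursors, and the list also holds the activators SREBP-1 and ChREBP (Mlxipl) and the first enzyme of triglyceride assembly.

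Pklr, the liver pyruvate kinase, measured 29.6 to 205 RPKTM in Control, median 140, and 254 to 409 in RevDKO, median 314. Acaca, the acetyl-CoA carboxylase that commits carbon to fatty acids, measured 40.4 to 118 RPKTM in Control and 124 to 234 in RevDKO. In both genes all 6 RevDKO libraries exceeded all 6 Control libraries, as in 0.279% of all genes tested. The higher genes of this list are named by p from these same values, so such counts are no separate evidence. The differences were 1.51 (SE 0.39, adjusted p 0.425) for Pklr and 1.06 (SE 0.31, adjusted p 0.482) for Acaca.

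Me1, the malic enzyme that supplies NADPH, measured 10.1 to 67.7 RPKTM in Control and 53.4 to 193 in RevDKO, and its difference of 1.80 (SE 0.44, adjusted p 0.369) had the smallest p of the list. Gpam, which starts triglyceride assembly, measured 71.9 to 345 and 248 to 597 RPKTM (difference 1.31, SE 0.34). Acly, the citrate lyase, measured 407 to 697 and 680 to 969 RPKTM (difference 0.66, SE 0.20). Each of these 3 genes had 5 of 6 RevDKO libraries above all Control libraries, for which the share over all genes was not computed.

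Fasn, the fatty acid synthase, measured 386 to 2867 RPKTM in Control, median 1224, and 1661 to 4707 in RevDKO, median 2675. The groups overlapped in 4 RevDKO libraries, and the difference was 1.16 (SE 0.38, adjusted p 0.52). Elovl6, which elongates palmitate, differed by 2.06 (SE 0.61), Thrsp by 1.80 (SE 0.51), Scd1, the stearoyl-CoA desaturase, by 1.21 (SE 0.42), Elovl5 by 0.94 (SE 0.33) and Srebf1, which encodes SREBP-1, by 0.74 (SE 0.32). The 1 gene with a negative difference was Scd2, the desaturase expressed in many tissues other than the liver. It measured 29.4 to 84.2 RPKTM in Control and 7.70 to 59.5 in RevDKO (difference -0.99, SE 0.47, adjusted p 0.6).

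In this list the hepatocyte level of Control exceeded the macrophage level in 16 genes, and was below it in Scd2. The count of 11 moved to 9 without the 2 Control libraries with the highest Alb, to 8 with the hepatocyte marker score as a covariate, and to 6 without the 4 libraries of low correlation, the last a setting chosen after seeing the data. The number with a positive difference was 14, 14 and 16 in these fits. The score was the mean log2 level of all 18 hepatocyte markers. It included Alb and Trf, which held some of the largest values in the 2 Control libraries with the highest Alb. The other 16 markers summed lowest in those 2 libraries. Whether the score follows hepatocyte RNA there was not tested. Whether hepatocyte RNA had a part in these differences was not tested.

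Genes of cholesterol synthesis, uptake and their regulation, many but not all of which answer to SREBP-2, had a median difference of 0.48. Of 22 tested, 4 were higher at an unadjusted p under 0.05 (4.34% over all genes) and none lower (4.05%), and 18 differences were positive. Insig2, which retains SCAP in the endoplasmic reticulum, measured 40.2 to 341 RPKTM in Control and 120 to 406 in RevDKO (difference 1.08, SE 0.42, adjusted p 0.569). Scap, the escort of the SREBPs, measured 46.8 to 178 and 129 to 264 RPKTM (difference 0.85, SE 0.33, adjusted p 0.574). Sqle, the squalene epoxidase, differed by 0.97 (SE 0.43). Each of these 3 genes overlapped between genotypes. Of the 10 genes of the sterol receptor LXR and sterol efflux, 1 was higher at the unadjusted threshold (4.34% over all genes), and the median was -0.18. It was the biliary sterol transporter Abcg8 (1.26, SE 0.39).

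Genes of fatty acid oxidation and PPARα had a median difference of -0.30. Of 15 tested, 4 were lower at an unadjusted p under 0.05 (4.05% over all genes) and none higher (4.34%). Beside Cyp4a10 and Acot1 these were Cyp4a14, a paralog of Cyp4a10 at -1.11 (SE 0.50), and Cpt1a, which carries fatty acids into mitochondria. Cpt1a measured 304 to 395 RPKTM in Control, median 357, and 244 to 279 in RevDKO, median 257. Its groups did not overlap, although the difference of -0.44 (SE 0.17, adjusted p 0.568) was small. In 0.209% of all genes tested every RevDKO library lay below every Control library. Cpt1a is named by its p from these same values, so this is no separate evidence.

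Of 13 lipid droplet and lipase genes 7 had a positive and 6 a negative difference, and none passed the adjusted threshold. At the unadjusted threshold 1 was higher (4.34% over all genes) and 3 were lower (4.05%). The hepatic lipase Lipc was higher (1.05, SE 0.40), and Cd36, a fatty acid and lipoprotein receptor (-0.93, SE 0.43), Lpl, the lipoprotein lipase (-0.74, SE 0.34), and Lipa, the lysosomal acid lipase (-0.52, SE 0.23), were lower. Of 23 steroid, xenobiotic and pheromone-binding genes of hepatocytes, 2 passed the adjusted threshold, Cyp17a1 and Cyp2a5 (0.0232% over all genes), and at the unadjusted threshold 4 were higher (4.34%) and 3 lower (4.05%). Cyp3a11, the main drug-metabolizing P450 of its family, measured 91.9 to 462 RPKTM in Control and was listed at 0 to 94.9 in RevDKO (difference -2.97, SE 0.84, adjusted p 0.474). Slc22a7, an organic anion transporter, differed by -1.18 (SE 0.44) and Cyp8b1, which sets the cholic acid share of bile, by 0.90 (SE 0.39).

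The genes that define Kupffer cells lay on the lower side in RevDKO. All 15 had a negative difference, with a median of -0.70, and 4 were lower at an unadjusted p under 0.05 (4.05% over all genes), while none passed the adjusted threshold. Marco, a scavenger receptor for bacteria and particles, measured 46.7 to 1005 RPKTM in Control, median 165, and 15.9 to 321 in RevDKO, median 64.4 (difference -1.62, SE 0.53, adjusted p 0.524). Fcna, a ficolin of the lectin complement pathway, measured 243 to 1513 and 186 to 395 RPKTM (difference -0.89, SE 0.41). Id3, a transcription factor needed for Kupffer cell identity, differed by -0.63 (SE 0.29) and C6, a complement component, by -0.47 (SE 0.22).

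The 3 most abundant Kupffer genes showed how much the Control libraries varied. Cd5l, a secreted scavenger protein, ranged from 553 to 13099 RPKTM in Control and from 608 to 1986 in RevDKO (difference -1.12, SE 0.59, adjusted p 0.619). Clec4f differed by -0.84 (SE 0.49) and Slc40a1, the iron exporter ferroportin, by -0.87 (SE 0.47). Without Control ZT22 replicate 3 the number lower at the unadjusted threshold was 13 of 15. It was 1 without Control ZT16 replicate 1, Control ZT22 replicate 1, RevDKO ZT16 replicate 3, RevDKO ZT22 replicate 1 or RevDKO ZT22 replicate 2, and 0 without the 2 Control libraries with the highest Alb. With the hepatocyte marker score as a covariate, 13 differences were negative and 1 gene was lower.

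Genes of macrophages in general lay on the same side. All 17 had a negative difference with a median of -0.71, none at an unadjusted p under 0.05 in either direction. Csf1r, the receptor for the growth factor of macrophages, measured 417 to 4902 RPKTM in Control, median 2231, and 585 to 1716 in RevDKO, median 923 (difference -1.02, SE 0.49, adjusted p 0.6). Lyz2, lysozyme, differed by -0.99 (SE 0.48) and the complement gene C1qb by -0.88 (SE 0.45). The 8 genes of MHC class II, which present antigen, were also all negative with a median of -0.64, and Cd74, the invariant chain, differed by -0.97 (SE 0.47, adjusted p 0.602).

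Most markers of hepatocytes had a positive difference, but the most abundant did not. Of 18 markers, 15 were positive, with a median of 0.38, and 2 were higher (4.34% over all genes) and none lower at an unadjusted p under 0.05. The 3 negative ones were Alb (-1.88, SE 1.11), the iron carrier Trf (-1.58, SE 1.06) and the heme carrier Hpx (-0.55, SE 0.37). Tdo2, tryptophan dioxygenase, measured 164 to 554 RPKTM in Control and 560 to 792 in RevDKO without overlap (difference 0.94, SE 0.29, adjusted p 0.503). Every RevDKO library lay above every Control library in 0.279% of all genes tested. Ttr, transthyretin, measured 432 to 2232 and 1733 to 2260 RPKTM (difference 0.93, SE 0.34). All 18 markers summed to 110200 to 2433000 RPKTM in Control, median 145700, and 95760 to 152700 in RevDKO, median 125700. Without Alb and Trf, which held top steps of the normalized values in Control ZT16 replicate 1 and Control ZT22 replicate 1, the markers summed to 30580 to 57720 RPKTM in Control, median 47390, and 46320 to 60990 in RevDKO, median 52530. In bulk libraries, fewer cells of a type and less RNA per cell cannot be told apart.

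**Figure D3:**
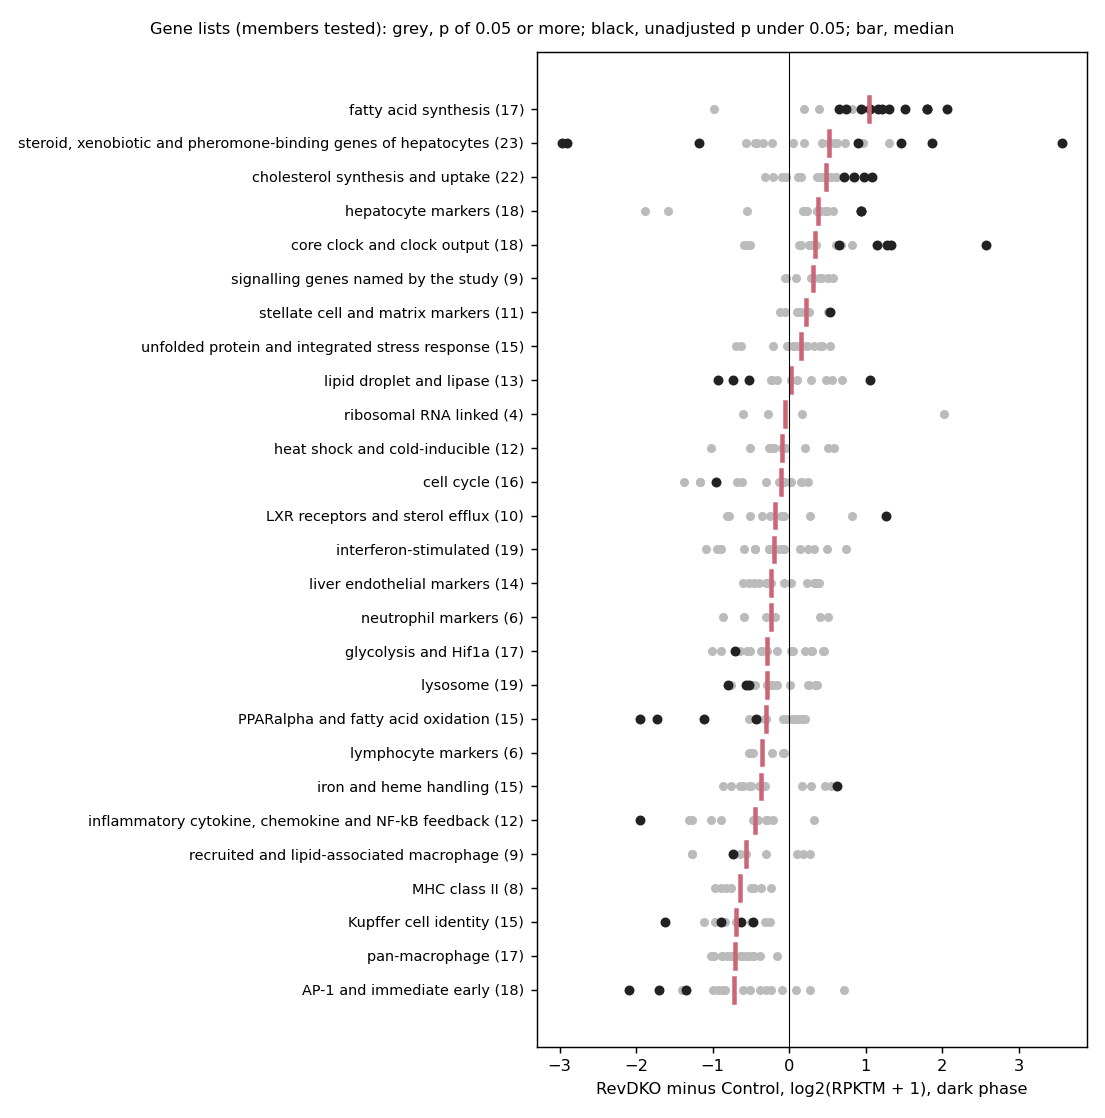
Dark-phase difference of every tested gene (horizontal axis, RevDKO minus Control, log2(RPKTM + 1)) by gene list (vertical axis, number of genes tested in brackets). Black points had an unadjusted p under 0.05, grey points did not, and the bar is the median of the list, from 1.04 for fatty acid synthesis to -0.72 for AP-1 and immediate early genes.

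The difference was then set against where each gene is mainly found. Genes whose Control level in the hepatocyte table exceeded that in the macrophage table by 3 log2 units or more, a description since the tables were normalized apart, numbered 485 (3.76% of those tested). Of these 92 were higher in RevDKO macrophage libraries at an unadjusted p under 0.05 (19% of the class) and 8 were lower (1.65%), 100 in all (20.6%), and their median difference was 0.58. Of the 2972 genes with a lower Control level in hepatocytes than in macrophages, 16 were higher and 242 lower at that threshold, with a median of -0.24. In the 9450 genes between these classes 452 were higher and 273 lower, with a median of -0.01. The Control macrophage level enters both the class and the difference, so the order of these medians is in part built in. How large that part is was not tested.

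The hepatocyte libraries of the same genotypes and times were fitted the same way. Of 12530 genes tested there, 381 passed the adjusted threshold (3.04%), 180 of them higher (1.44%) and 201 lower (1.6%) in RevDKO. All 13 of the higher macrophage genes named above were among the genes called higher in hepatocytes. Of the 8 lower ones that could be tested there, 6 were called lower, and the others, Zfp429 (-0.12, SE 0.34) and Armc10 (0.02, SE 0.19), were near 0. B3galt4 and Camkk1 were too low in hepatocytes to be tested. Cyp17a1 differed in hepatocytes by 3.12 (SE 0.29), Loxl4 by 3.53 (SE 0.34) and Cyp2a5 by 1.84 (SE 0.19), with adjusted p of 1.8e-05, 1.8e-05 and 3.78e-05.

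Of the 180 genes higher in RevDKO hepatocytes, 166 were tested in macrophages. There 147 had a positive difference, where 48% of all genes tested did, and 92 were higher at an unadjusted p under 0.05 (4.34% over all genes), with a median of 1.04 log2 units. Of the 201 genes lower in RevDKO hepatocytes, 192 were tested, 152 had a negative difference and 36 were lower at that threshold (4.05%), with a median of -0.285. Without the 2 Control libraries with the highest Alb the first count was 62 and the second 53. With the hepatocyte marker score as a covariate they were 60 and 69.

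By level class, the 24 genes called higher in hepatocytes whose Control level was at least 3 log2 units above macrophages all had a positive macrophage difference (median 1.59). Of the 130 between 0 and 3 log2 units, 118 had (median 1.0). Of the 12 genes with more signal in macrophages than in hepatocytes, 5 had a positive difference (median -0.22), and 2 were higher and 2 lower at the unadjusted threshold. The genes called lower in hepatocytes had medians of -0.27, -0.28 and -0.37 in the same classes, and 22 of 32, 125 of 153 and 5 of 7 were negative. Here too the Control macrophage level enters both the class and the difference, so these splits are no independent evidence. The part of hepatocyte RNA in these values was not tested.

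**Figure D4:**
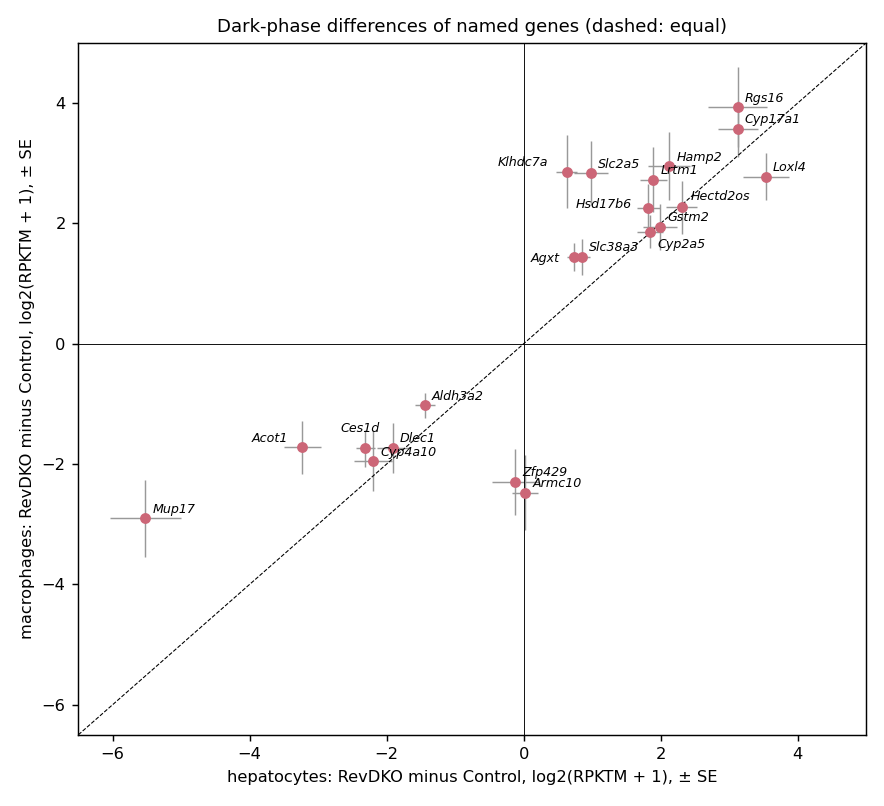
Dark-phase difference in hepatocytes (horizontal axis) and in macrophages (vertical axis), both RevDKO minus Control on the log2(RPKTM + 1) scale with SE, for the 21 named genes tested in both. All 13 higher genes lie in the upper right, 6 of the 8 lower genes in the lower left, and Zfp429 and Armc10 lie near 0 on the hepatocyte axis.

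The 2 time points were compared next. At ZT16 alone no gene passed the adjusted limma threshold (0%), and of 644 at an unadjusted p under 0.05 (4.99%) 221 were higher (1.71%) and 423 lower (3.28%). At ZT22 none passed (0%), and of 808 at that threshold (6.26%) 485 were higher (3.76%) and 323 lower (2.5%). No gene passed the test of whether the difference itself changed between ZT16 and ZT22 (0%), where 417 had an unadjusted p under 0.05 (3.23%), 280 with the larger value at ZT22 (2.17%) and 137 at ZT16 (1.06%). The smallest such p was that of Dmbt1, a secreted scavenger receptor, with 3.15 at ZT16 and -2.27 at ZT22 (SE 0.72 each, interaction p 0.000105). The next were Tjap1 (1.85 and -1.36), Smpd3, a neutral sphingomyelinase (-1.15 and 3.38), Fcmr (-1.49 and 2.63) and Ammecr1l (1.20 and -0.69).

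Control ZT22 replicate 3 and RevDKO ZT16 replicate 3 decided the counts per time point. Without the former, 158 genes passed at ZT22, 140 of them higher, and 2 at ZT16. Without the latter, 44 passed at ZT16, 43 of them lower. In fatty acid synthesis, 2 of 17 genes were higher at an unadjusted p under 0.05 at ZT16 (1.71% over all genes, list median 0.91) and 9 at ZT22 (3.76%, list median 1.41). Whether the list differed between the times was not tested as a list, and no member passed the interaction.

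The dark phase was set against the light phase, ZT4 and ZT10, in a fit of 24 libraries with 6 more of each genotype. In that fit 18 of 13674 genes passed in the dark (0.132%), 16 higher (0.117%) and 2 lower (0.0146%), and 10 in the light (0.0731%), 7 higher (0.0512%) and 3 lower (0.0219%). Loxl4 differed by 4.04 in the light (SE 0.35, adjusted p 3.76e-07) and Cyp2a5 by 2.13 (SE 0.30, adjusted p 0.000954), and the light-phase difference of Cyp17a1 was 2.80 (SE 0.58, adjusted p 0.0568). Npas2 differed by 4.21 in the light (SE 0.64, adjusted p 0.00225) and Nfil3 by 2.32 (SE 0.43, adjusted p 0.0237). Ces1d differed by -1.87 (SE 0.26, adjusted p 0.000954), close to its dark value.

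No gene passed the test of dark against light difference (0%), where of 462 at an unadjusted p under 0.05 (3.38%) 242 were larger (1.77%) and 220 smaller (1.61%) in the dark. The 5 smallest p-values among the genes tested in the dark were those of Elovl6, Rgs16, Slc2a5, Fasn and Ltc4s, all with an adjusted p of 1. Elovl6 differed by 2.06 in the dark and -1.43 in the light (SE 0.54), and Fasn by 1.16 and -0.65 (SE 0.33). Rgs16 differed by 3.93 and -0.34 (SE 0.67), Slc2a5 by 2.83 and 0.18 (SE 0.48), and Ltc4s, the leukotriene C4 synthase, by -1.15 and 0.91 (SE 0.54).

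Of the 17 genes of fatty acid synthesis, 16 had a larger difference in the dark than in the light and 10 did so at an unadjusted p under 0.05 (1.77% over all genes). Their median difference in the light was -0.21, with 6 of 17 positive. Pklr differed by -0.96 in the light (SE 0.52), Me1 by -0.21 (SE 0.41), Gpam by -0.21 (SE 0.32) and Acly by -0.26 (SE 0.20). The Kupffer list had a median of -0.26 in the light with 2 of 15 positive. Of the 18 hepatocyte markers, 15 had a larger difference in the dark than in the light (median 0.37), and 6 were positive in the light (median -0.06). Their part in the dark against light differences was not tested.

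**Figure D5:**
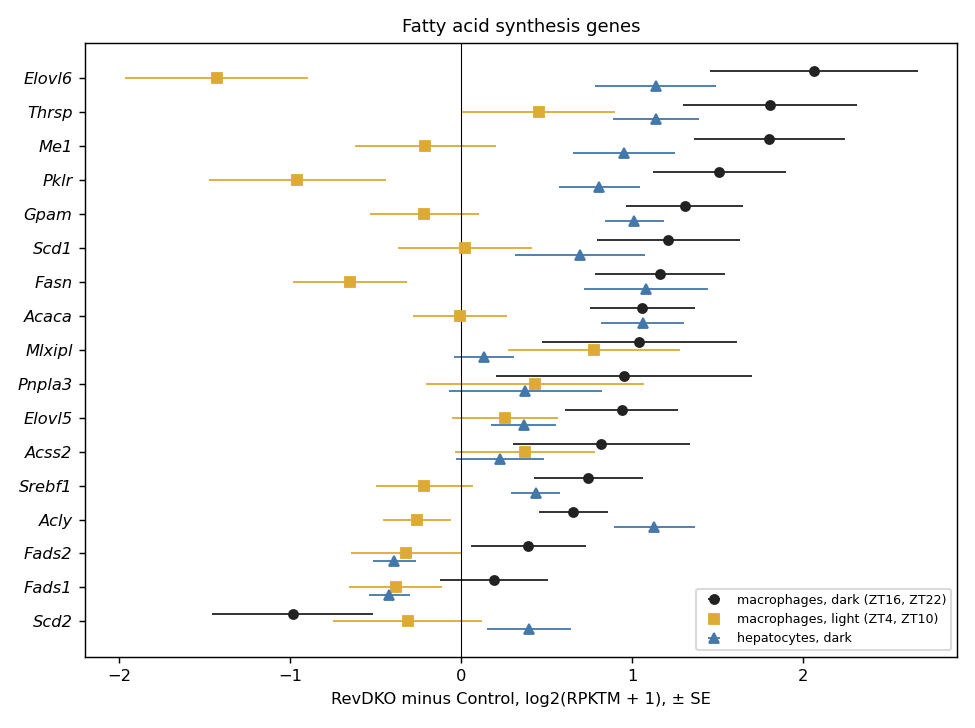
Difference of the 17 fatty acid synthesis genes (horizontal axis, RevDKO minus Control, log2(RPKTM + 1), with SE) in dark-phase macrophages (circles), light-phase macrophages (squares) and dark-phase hepatocytes (triangles). Dark-phase macrophage values run from -0.99 for Scd2 to 2.06 for Elovl6, and 16 of them lie to the right of the light-phase values.

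Genes of other macrophage functions were examined by list. Of 18 AP-1 and immediate early genes, which respond within minutes to stimulation and to tissue dissociation, 15 had a negative difference, with a median of -0.72. At an unadjusted p under 0.05, 3 were lower (4.05% over all genes) and none was higher. The list median was -0.11 at ZT16 and -1.21 at ZT22, and whether the list differed between the times was not tested. Klf2, a factor that restrains inflammatory activation, was listed at 0 to 29.6 RPKTM in RevDKO and measured 15.8 to 63.5 in Control (difference -2.09, SE 0.88). Klf4 differed by -1.70 (SE 0.69) and Btg2 by -1.34 (SE 0.57). Of 12 inflammatory cytokine and NF-kB feedback genes that could be tested, 1 was lower (4.05% over all genes), Il1rn, the interleukin 1 receptor antagonist (-1.95, SE 0.77), while Tnf differed by -1.31 (SE 0.77) and 9 further genes of the list were too low to test. Of 19 interferon-stimulated genes none had an unadjusted p under 0.05, and the median was -0.20.

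Recruited and lipid-associated macrophage genes were low. Over all genes 4.34% were higher and 4.05% lower at the unadjusted threshold, against which a single gene of a short list is no result about the list. Of 9 tested, 1 was lower at the unadjusted threshold, Lpl. Trem2, the lipid receptor of such cells, was listed at 0 to 24.7 RPKTM in Control and 0 to 18.9 in RevDKO, and Ccr2, the monocyte chemokine receptor, measured 2.03 to 110 and 8.19 to 30.9. The 19 lysosomal genes had a median of -0.29, with 3 lower (4.05% over all genes), among them Psap, the precursor of the saposins (-0.79, SE 0.33). Of 15 genes of iron and heme handling, 1 was higher, Cp, ceruloplasmin (0.63, SE 0.25). Of 17 glycolysis genes 1 was lower, Hk3 (-0.71, SE 0.31), and of 16 cell cycle genes 1 was lower, Mki67, a marker of dividing cells (-0.95, SE 0.30). None of the 12 heat shock, 15 unfolded protein response and 9 tested signalling genes that the study named had an unadjusted p under 0.05. Jund, Eno1, Inhba and Tnfsf12 were among the last, and since the study chose these on its own samples they are no independent evidence. The study named Jund and Eno1 for their rhythm in macrophages, and Inhba and Tnfsf12 as ligands from hepatocytes. A mean difference in dark-phase macrophages is another measure and does not test those statements.

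Markers of other cell types were present as well. Liver endothelial markers summed to 2443 to 7767 RPKTM in Control and 2722 to 5454 in RevDKO, led by Ptprb, Stab2 and Kdr, and stellate cell and matrix markers to 977 to 2055 and 1091 to 2327, led by Reln, Dcn and Rgs5. Of 14 endothelial markers none and of 11 stellate markers 1 (Ecm1, 0.53, SE 0.21) had an unadjusted p under 0.05, where 4.34% of all genes were higher. Neutrophil markers summed to 35.7 to 153 RPKTM in Control and 26.2 to 96.7 in RevDKO, lymphocyte markers to 28.0 to 93.6 and 23.0 to 62.2, and cholangiocyte markers to 10.6 to 63.6 and 17.9 to 54.7. None of the 6, 6 and 2 markers tested had an unadjusted p under 0.05. The 4 transcripts linked to ribosomal RNA, such as Rn45s, had none either.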

How the data were processed

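RNA sequencing libraries of liver macrophages and hepatocytes were analysed from 1 deposited table per cell type, with 36 libraries each. The authors removed ribosomal RNA and used a stranded TruSeq kit, and the submitters' processing notes name STAR, HOMER and mm9. Versions are not given in the sources used here, nor is the use of strand in counting, so a gene such as Hectd2os and an overlapping partner may share reads. The deposited values are RPKTM, an RPKM scaled by 10 and listed here as a score, which the authors had quantile normalized. All 36 macrophage libraries held the same sorted values, so depth is unknown, no interval that needs depth is given, and precision rests on the spread between libraries. The largest 4 values stand far above the fifth, so a gene that enters them shifts by a large step. Whether the 3 libraries of a group came from separate mice is stated by the study only as biological replicates, and p-values measure the spread between these libraries.

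Each gene symbol (text before the first bar of the annotation) was represented by its transcript of highest mean among 42322, and 91 transcripts whose symbol is given as 0 count as 1 gene. Genes with at least 3 of 12 libraries over 5 RPKTM were kept. limma 3.58.1 (R 4.3.3) with a mean-variance trend was fitted to log2(RPKTM + 1) with genotype and ZT. Time points, interactions and hepatocytes were fitted likewise, the dark against light difference over 24 libraries. P-values were adjusted by Benjamini-Hochberg over all genes tested, and tests are two-sided. The scripts were tested on simulated data.

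Genes named are those past the threshold, the 10 of smallest p in each direction, the targeted and clock genes, the members of each list past the adjusted or else of smallest p, the most abundant markers, and the 5 smallest p of each interaction. Cyp2a4 and some marker genes were added after their values were seen. The gene lists and this comparison were chosen with earlier results of these data known. Tables of the Scap knockout experiment were not used here, and 1 gene counted in a list is not reported here by name. Promoter windows were read from the mm9 genome (NCBIM37) with Python 3.11.15.

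Alternatives were the pseudocount, the filter, all transcripts, the libraries in the fit, the trend, library weights, the replicate block, a hepatocyte marker score and leaving out libraries.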

Additional observations from a re-analysis of the deposited data

Results flagged for a closer look

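Each named gene and marker sum was examined in the 6 Control and the 6 RevDKO libraries for 1 library far from the rest, by Dixon's criterion on the gap over the range. Of 76 groups, 10 held such a library, where chance gives about 5%. In the RevDKO libraries, Cyp17a1 was 717 RPKTM in ZT22 replicate 2, Slc2a5 17.4 in ZT22 replicate 1, Mup17 3.29 in ZT22 replicate 3 and Nr1d2 94.2 in ZT16 replicate 2, each far above the other 5. In the Control libraries, Slc2a5 was 3.86 in ZT16 replicate 3, Hectd2os 31.7 in ZT22 replicate 3, B3galt4 18.4 in ZT22 replicate 2 and Dlec1 119 in ZT16 replicate 3. The summed level of cholangiocyte markers was 63.6 RPKTM in Control ZT22 replicate 3. That of the transcripts linked to ribosomal RNA was 822200 RPKTM in Control ZT22 replicate 1, where Alb took the top value that Rn45s held in the other libraries.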

How the results depend on the processing

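The deviations of Control and RevDKO libraries with the same replicate number correlated between -0.12 and 0.163, so the numbers were not taken to pair the libraries. With the replicate block 2 genes passed in the dark phase (Loxl4, dark phase difference, had an adjusted p of 0.0936), 0 at ZT16, 0 at ZT22, 0 in the interaction with ZT and 0 in that with phase, and 296 in hepatocytes.

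For the genotype difference, dark phase, the count of 3 was 0 with a pseudocount of 0.1, 12 with a pseudocount of 10 (11 higher), 0 with no filter on low values, 28 with all 36 libraries (17 higher), 0 with no trend, 1480 with library weights (791 higher), 7 with the hepatocyte marker score as a covariate (3 higher) and 1 without the 2 Control libraries with the highest Alb. Of settings chosen after seeing the data, it was 0 without the 4 libraries of low correlation, 15 without Control ZT22 replicates 1 and 3, and 21 with the 24 Control and RevDKO libraries and the same genes. Leaving out 1 library gave 0 to 39. The cause of these shifts was not tested. At ZT16 the count was 2 with no filter on low values, and leaving out 1 library gave 0 to 44 at ZT16, 0 to 158 at ZT22, 0 to 0 for the ZT interaction and 0 to 3 for the phase interaction. For the last it was 3 without Control ZT22 replicate 3 and 1 without RevDKO ZT16 replicate 3. In hepatocytes it was 152 with no filter and 261 to 364 without 1 library.

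Of 695 recomputed values of the 27 named genes, 578 kept their direction and side of the threshold, 36 lost and 74 gained a call, and 7 turned in sign. The values of Nr1d2, dark phase difference, were -0.26 with library weights, -0.031 without the 4 libraries of low correlation, -0.061 without Control ZT22 replicate 3, -0.008 without RevDKO ZT16 replicate 2 and -0.001 without RevDKO ZT22 replicate 2, and leaving out 1 library gave -0.061 to 0.315 for it. The values of Arntl, dark phase difference, were -0.052 with the marker score and -0.105 without the 2 Control libraries with the highest Alb.

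With depth unknown, genes near 0 cannot be told from undetected ones. Quantile normalization hides a shift of the whole distribution.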
